A study of Mus musculus with 15 samples.

Results

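The cytosolic ribosomal protein genes were taken as all protein-coding genes of the mouse annotation GENCODE vM1 (build mm9) whose symbol is Rpl or Rps followed by a number and an optional letter, without the Rps6k kinases, symbols ending in l and copies marked -ps. The rule found 72 genes of 22367, of which 42 code for proteins of the large ribosomal subunit (Rpl) and 30 for proteins of the small one (Rps). ChIP-seq of RNA polymerase II (Pol2), H3K4me1, H3K4me2 and H3K4me3 was available from αTN4 cells carrying a control shRNA. H3K4me1, H3K4me2 and H3K4me3 were also mapped in αTN4 cells with an shRNA against Pax6 (Pax6 KD), and H3K4me2 in newborn lens. The αTN4 line consists of mouse lens epithelial cells transformed with the SV40 T-antigen. Both αTN4 groups were infected with lentivirus, selected with puromycin and grown as pooled populations, so the control cells carry an shRNA construct too. The lens came from CD-1 mice at postnatal day 1 and holds both epithelium and fibre cells. The series asked how Pax6 binding relates to methylation of H3K4. Each list of regions stands for 1 library, so no difference between conditions has a replicate check and no p-value is given. RNA-seq libraries were not analysed here, and the lists therefore hold no measure of Pax6 mRNA in the Pax6 KD cells.

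Ribosomes contain the ribosomal proteins in equal amounts, and cells make them in step with each other. Their genes are short, are transcribed by Pol2 at high rates in growing cells, and many of them host small nucleolar RNAs (snoRNAs) in their introns. Transcription of these genes typically begins at a C within a run of pyrimidines, which leaves the mRNA with a 5′ terminal oligopyrimidine (TOP) tract through which the mTOR pathway controls its translation. At active promoters H3K4me3 lies closest to the start, with H3K4me2 and then H3K4me1 further out.

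The lens genes in the same lists gave a check of the cells. Of 10 lens markers, 6 had a Pol2 peak in αTN4, and Foxe3, Crygs, Bfsp1 and Mip, of which the last 3 are best known from fibre cells, had none. In lens H3K4me2, 9 of 10 had a peak. Of 9 markers of retina, pigment epithelium, vessels and blood, 0 had a Pol2 peak in αTN4, 1 had H3K4me2 in control αTN4 (Pecam1) and 3 had H3K4me2 in lens (among them Crx and Cdh5).

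All 72 ribosomal protein genes had a peak within 2 kb of an annotated start in each of the 6 lists called with MACS2, which hold Pol2, H3K4me3 and H3K4me2. Among all protein-coding genes 45.5% did so. The share of 100% has a 95% Wilson interval from 94.9% to 100% in each list, which covers counting error only. The background differed by list. It was 47.9% for Pol2, 49.1% and 47.7% for H3K4me3 in control and Pax6 KD cells, 58.2% and 57.1% for H3K4me2 in the same cells, and 66.8% for H3K4me2 in lens. H3K4me1 was the exception, with an island at 46 members in control cells (63.9%, background 36.0%) and at 23 in Pax6 KD cells (31.9%, background 16.7%). All 8 lists held a region at 22 members, against a background of 11.6%.

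**Figure D1:**
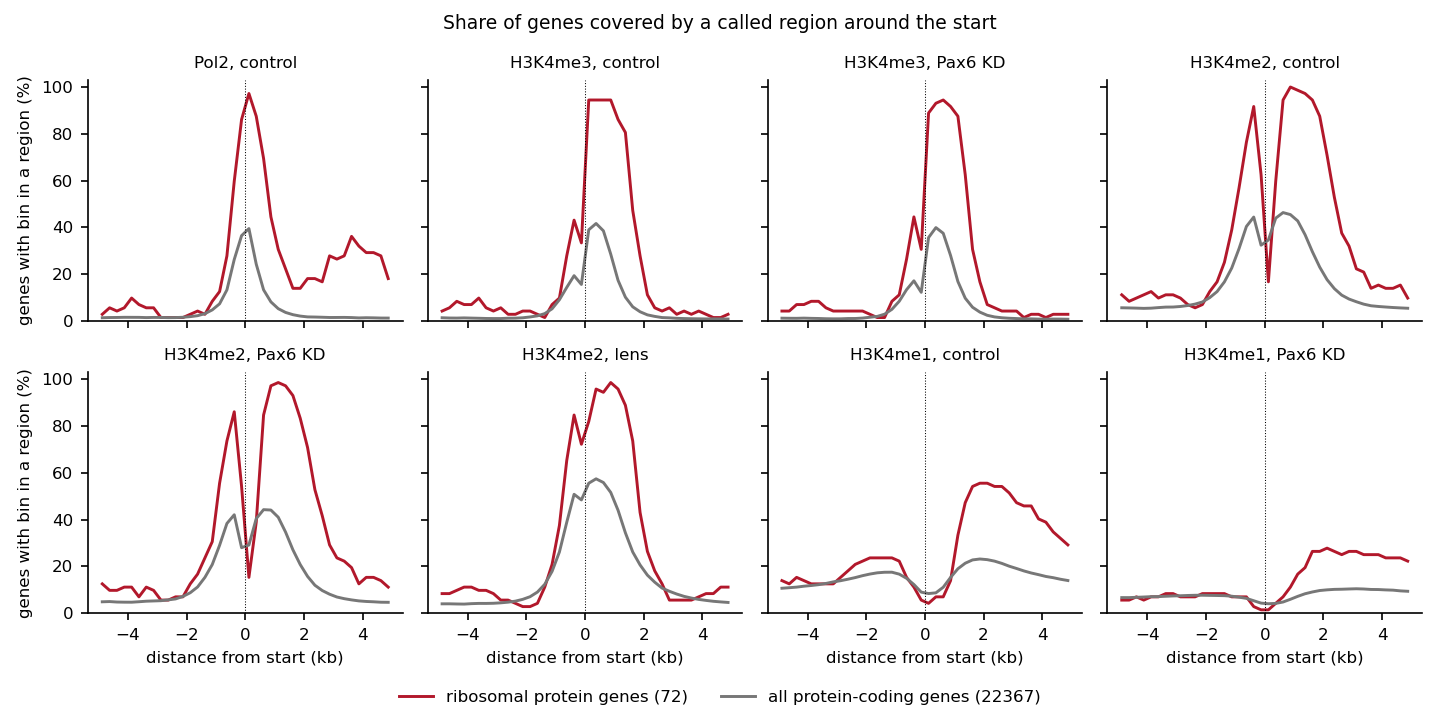
Share of genes (y axis, percent) in which the midpoint of each 250 bp bin lies in a called region, in each library. The x axis gives kb from the start shared by most transcripts, positive in the direction of transcription. Red marks the 72 ribosomal protein genes and grey all 22367 protein-coding genes. Pol2 is centred just past the start, H3K4me3 lies over the first kb, H3K4me2 dips at the start in both αTN4 libraries, and H3K4me1 is highest about 2 kb downstream.

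Pol2 in control αTN4 was strong at nearly the whole family. The fold enrichment of the strongest Pol2 peak, which is the ratio of ChIP signal to local background given by MACS2, ran from 10.9 to 65.7 with a median of 30.2, against a median of 14.9 over all genes with a peak. Expressed as a percentile of the fold within the Pol2 list, the median member stood at 96.0 and the median gene at 70.6. In the top decile of the list stood 51 members (70.8%, background 17.5%). Large and small subunit genes were alike in this respect, with median percentiles of 96.1 for Rpl and 95.9 for Rps. The 77 mitochondrial ribosomal protein genes, which are also expressed in most cells, had a median of 74.8, with Pol2 at 74 of them.

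The highest Pol2 fold was at Rpl3 (65.7), whose protein reaches towards the peptidyl transferase centre. It was followed by Rpl12 (57.7) at the base of the stalk that binds elongation factors, and by Rpl10a (51.1), the protein of the mobile stalk that faces the exit site. Rpl8 had a fold of 48.8 and Rps2, which lines the path by which mRNA enters, one of 48.7. The lowest folds were at Rpl22 (10.9), Rps25 (12.2), a small subunit protein required by several viral internal ribosome entry sites, and Rpl11 (14.4), which together with Rpl5 binds Mdm2. The lowest of these still stood at the 55.2 percentile of the list. Rpl22l1, a close relative of Rpl22 that the rule left out, had a fold of 40.6.

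**Figure D2:**
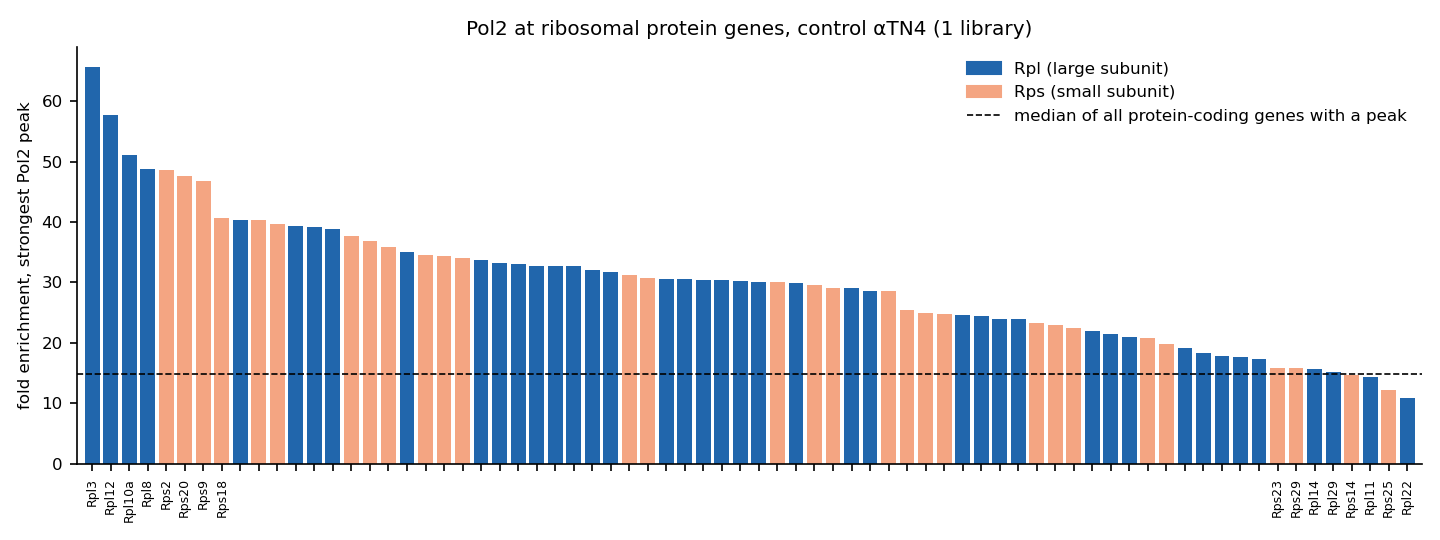
Fold enrichment of the strongest Pol2 peak within 2 kb of a start (y axis) for each of the 72 genes (x axis, with the 8 highest and the 8 lowest named), in order, in the single control αTN4 library. Blue bars are Rpl and orange bars Rps genes, and the dashed line is the median of all protein-coding genes with a Pol2 peak (14.9), which Rps14, Rpl11, Rps25 and Rpl22 do not reach.

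The sequence at these starts is shown for the members with the highest and the lowest Pol2 fold, read from mm9. Each is printed 5′ to 3′ on the strand of the gene, with 100 bases before the annotated start nearest to the Pol2 summit and 30 bases from it on. Capitals mark the longest stretch of C and T counted from a C within 30 bases of that start, if it is at least 7 bases long. The stretch may follow a T, which is not counted, and of equal stretches the one nearest to the start is marked. Windows with more than 30 bases in annotated exons were shortened to 30 bases around the run.
Rpl3 (highest Pol2, chr15:79913807-79913936, minus strand): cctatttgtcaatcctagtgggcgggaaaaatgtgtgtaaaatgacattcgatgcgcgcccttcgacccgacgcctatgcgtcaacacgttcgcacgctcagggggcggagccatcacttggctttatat
Rpl10a (highest but for Rpl3 and Rpl12, chr17:28465316-28465445, plus strand): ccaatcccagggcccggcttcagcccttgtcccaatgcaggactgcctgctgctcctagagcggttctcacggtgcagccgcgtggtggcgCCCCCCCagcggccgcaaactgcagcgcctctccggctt
Rpl8 (next after Rpl10a, chr15:76734401-76734530, plus strand): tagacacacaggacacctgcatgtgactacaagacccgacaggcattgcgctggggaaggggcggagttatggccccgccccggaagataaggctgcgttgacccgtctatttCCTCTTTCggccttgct
Rps25 (lowest but for Rpl22, chr9:44215697-44215826, plus strand): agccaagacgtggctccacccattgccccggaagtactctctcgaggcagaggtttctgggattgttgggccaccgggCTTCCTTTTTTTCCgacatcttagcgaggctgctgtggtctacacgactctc
Rpl12 (next after Rpl3, chr2:32817057-32817086, plus strand): taCCCCTTCCgaatcccgagctcacccaca
Rps2 (next after Rpl8, chr17:24857046-24857075, plus strand): cgCCTCCCTCTTCTTCTTCTTCgggagaac
Rpl22 (lowest, chr4:151699961-151699990, plus strand): cgCCCCCCTCCCTTTCTgcctcctctgccg
Rpl11 (next above Rps25, chr4:135609279-135609308, minus strand): acggggccggaagtCTCCCTCTCTCTTCCT

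Runs of this kind lay beside both strongly and weakly occupied starts. The run at Rps2 had 20 bases and that at Rpl22 had 15, and none began within 30 bases of the annotated start of Rpl3. The Pol2 summit lay 102 bp past the annotated start at Rpl3, 143 bp at Rpl10a and 190 bp at Rpl12. The runs printed for Rpl10a and Rpl12 thus lie well upstream of the summit. At Rpl3 the summit lies beyond the bases searched, so a run nearer to it would not have been found. At the other printed starts the summit was nearer, from 4 bp at Rps25 to 55 bp at Rpl22. Over the family, 38 of 72 members (52.8%, Wilson interval 41.4% to 63.9%) had a C followed by pyrimidines, at least 5 in all, beginning within 5 bases of any annotated start, where the background was 28.6%. With at least 7 pyrimidines the count was 32 (44.4%, background 10.9%). At the start shared by most transcripts alone it was 14 (19.4%, background 17.8%), and at exactly an annotated base it was 16 (22.2%, background 4.04%). Runs of at least 7 beginning within 30 bases of a start were found at 58 members (80.6%, background 41.1%). Members had a median of 2 annotated starts and all genes a median of 1, so a count over any start favours the members. Of 16 other genes of the translation machinery with known TOP mRNAs, such as Eef1a1 and Eef2, 10 had the tract of at least 5.

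Short motifs were searched on both strands from 250 bases before to 50 after the start shared by most transcripts. CCGGAAG, the core bound by ETS factors such as GABP, was in 19 promoters (26.4%, background 10.8%), among them those of Rpl8, Rps25 and Rpl11, and in 35.1% of the mitochondrial ribosomal promoters. GGGCGG, the core of SP1 sites, was in 33 (45.8%, background 43.9%). CCATCTT, the core bound by YY1, was in 9 (12.5%, background 6.79%), and TATAAA in 8 (11.1%, background 13.5%). CCATCTT was also in 19.5% of the mitochondrial ribosomal promoters and in 3 of those of the 16 other TOP genes. The median observed to expected ratio of CpG was 0.85 in the members and 0.54 over all genes, at a similar median GC content of 55.2% and 55.3%. A high ratio was not particular to the family, with 0.82 at the mitochondrial ribosomal genes and 0.90 at the 16 other TOP genes. A match describes the letters in the window and does not show that a factor was bound.

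Several members at the ends of the order are described in full. Folds of different libraries are not on a common scale, and the H3K4me3 fold was lower in Pax6 KD cells at 69 of all 72 members. Rpl3 (chr15:79908211-79913836, minus strand) was the most heavily occupied, with a Pol2 peak 3722 bp wide over 89.6% of the gene, and had an H3K4me3 fold of 37.4 in control, near the family's median, and of 22.3 in Pax6 KD cells, below the median of 26.7. Rpl12 (chr2:32817079-32820016, plus strand) was high in αTN4 for every mark, with H3K4me3 folds of 49.5 and 33.0 and H3K4me2 folds of 29.6 and 28.8 in control and Pax6 KD cells, and had an H3K4me2 fold of 17.7 in lens. Rpl10a (chr17:28465416-28467977, plus strand) had the widest Pol2 peak of the family (4269 bp), which is longer than the gene (2562 bp). Its H3K4me1 island was called in control only.

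Rpl8 (chr15:76734501-76736748, plus strand) combined a narrow Pol2 peak of 1060 bp over 33.1% of the gene with H3K4me3 folds of 49.0 and 36.2 in control and Pax6 KD cells. Rps2 (chr17:24855061-24858874, plus strand) had H3K4me3 folds of 53.2 and 34.9, and H3K4me2 folds of 17.6 in control, 26.4 in Pax6 KD and 17.5 in lens. At the other end, Rpl22 (chr4:151699851-151708180, plus strand) had a Pol2 peak over 5.26% of its length. Its methylation was nearer to the rest, with H3K4me3 folds of 30.9 and 18.9 and H3K4me2 folds of 21.7, 20 and 27.6 in control, Pax6 KD and lens. Rps25 (chr9:44215797-44218488, plus strand) had H3K4me3 folds of 28.7 and 21.9, and Rpl11 (chr4:135584180-135609343, minus strand) had 30.2 and 22.1. Rpl22, Rps25 and Rpl11 had no H3K4me1 island in either library.

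Ribosomal protein genes that are mutated in Diamond-Blackfan anaemia, a failure of red cell production, spanned the range of the family. Among them Rps19, the most often affected, had a Pol2 fold of 30.8, H3K4me3 folds of 40.8 in control and 30.3 in Pax6 KD cells, and H3K4me2 folds of 25.9, 27.5 and 33.2 in control, Pax6 KD and lens. Rps10, Rps26 and Rpl5 had Pol2 folds of 39.6, 34.4 and 32.8. Rps24 had 29.2, Rps7 had 22.5, Rpl35a 17.4 and Rpl11 14.4. These 8 genes were thus found on both sides of the family's median of 30.2. Rps10 and Rps19 had an H3K4me1 island in both libraries, Rps24 in control only, and the other 5 in neither.

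Pol2 at these genes was not confined to the start. The strongest peak was 1235.5 bp wide in the median (389 to 4269 bp), against 836 bp over all genes, and the summit lay a median of 43 bp past the start. Pol2 covered the start itself at 69 members (39.2% of all genes) and a point 1 kb downstream at 25 (6.33% of all genes). Among genes with a peak, an annotated start was covered at 98.6% of members and 89.1% of all such genes. A median of 26.0% of the gene's length was in a Pol2 peak, against 2.27% over all genes with Pol2, whose median length was 22189.5 bp where that of the members was 3226.5 bp. Rpl10a, Rpl36 and Rps21 were covered by Pol2 from end to end. Across the 72 members, fold and width of the Pol2 peak went together, with Pearson's r = 0.66 and Spearman's rho = 0.62, given as a description of genes in 1 library.

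A Pol2 peak away from the starts reached past the end of most ribosomal protein genes. It was counted when it overlapped the first 2 kb past the annotated end and lay over 500 bp from all starts of the gene. Such a peak was present at 56 of 72 members, against a background of 10.8% of all genes with Pol2 at the start. Starts of other protein-coding genes can give such peaks, so genes with one from 2 kb before to 4 kb after their end were left out. Of the remaining 52 members 37 had the peak (71.2%, Wilson interval 57.7% to 81.7%), against a background of 4.40%. Their summits lay a median of 1261 bp past the end, and their fold was modest, with a median of 5.62. Overlap alone was asked, so a summit can lie outside the 2 kb, as at Rps20, 1149 bp before the end. Rpl12 had the highest of them (34.0), in a peak that began inside the gene and had its summit 2367 bp past the end. Rpl3 followed with 14.6 at 1486 bp past its end. Rpl8, Rpl10a and Rps9 had folds of 4.23, 5.62 and 6.60.

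The gene ends were not alike in other classes. Of 869 other genes of at most 5 kb with Pol2 and no start near the end, 17.5% had such a peak. Of the 209 among them in the top decile of Pol2, 34.9% had one, with a Wilson interval of 28.8% to 41.6%. Only 1 of 56 mitochondrial ribosomal genes did. Among the ribosomal protein genes, the 37 with the peak had a median Pol2 fold of 32.0 at the start (15.9 to 65.7), and the 15 without it one of 18.3 (10.9 to 37.7). The 2 ranges overlap. Rpl22, Rps25 and Rpl11, the members of lowest Pol2, were all without a peak past the end. This measure was chosen after the profile around the starts had been seen.

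**Figure D3:**
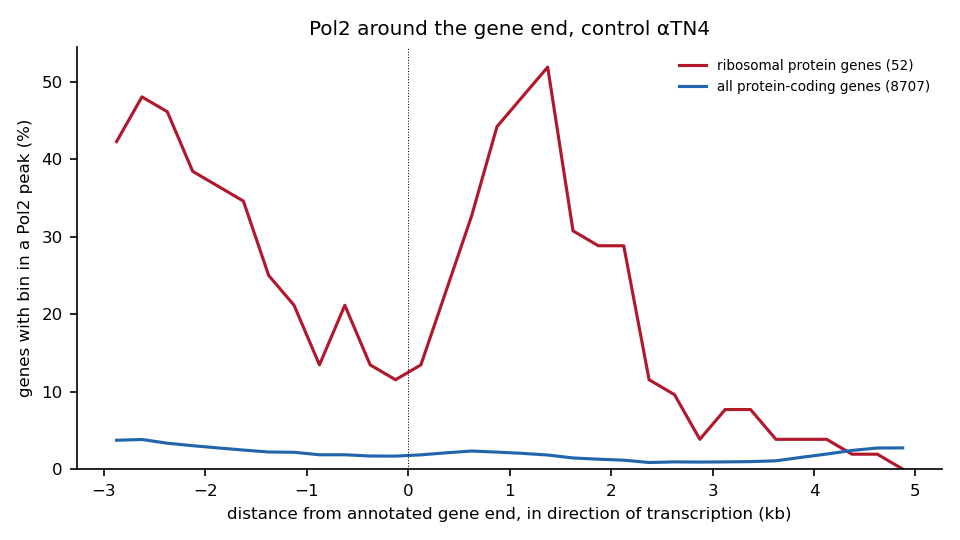
Share of genes (y axis, percent) of which each 250 bp bin is counted as in a Pol2 peak in control αTN4. The x axis gives kb from the annotated gene end, positive past the end. Red marks 52 ribosomal protein genes and blue 8707 protein-coding genes, with Pol2 at the start and no other start near the end. The members stand at 11.5% just before the end and at 51.9% between 1.25 and 1.5 kb past it, and the high values on the far left come from the starts of these short genes.

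H3K4me3 in control cells covered the first kilobase of the transcribed region. The strongest peak had a median fold of 37.6 (15.1 to 54.2), against 23.4 over all genes with a peak, and a median percentile of 93.3 against 66.8. In the top decile stood 43 members (59.7%, background 16.1%). The peaks were 1790.5 bp wide in the median, where those of all genes were 1077 bp wide. Their summits lay a median of 367 bp past the start. H3K4me3 covered the start in 47 members (26.1% of all genes) and the point 1 kb downstream in 66 (22.4% of all genes). Among genes with a peak, an annotated start was covered at 87.5% of members and 69.4% of all such genes. The mitochondrial ribosomal genes had a median percentile of 79.3.

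Individual members differed in H3K4me3 more than 3-fold. The highest folds in control cells were at Rpl31 (54.2), a protein at the exit of the peptide tunnel, at Rps16 and Rps2 (53.2 each), and at Rpl27a and Rpl35 (51.3 each). The lowest were at Rps29 (15.1), a small zinc-binding protein of the small subunit, at Rpl36a (18.5) and at Rps4x (19.3), the X-linked form of the small subunit protein Rps4. Rps29 was also the lowest member in Pax6 KD H3K4me3 (9.35) and in control H3K4me2 (8.19). Its fold for Pol2 was 15.9, among the lower ones. High Pol2 did not imply high H3K4me3. Rps9 had a Pol2 fold of 46.7 and an H3K4me3 fold of 21.8, while Rpl34 had 17.6 and 38.1. Across members Pearson's r between the 2 folds was 0.33 and Spearman's rho 0.34 (n = 72 genes, 1 library for each).

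The 4 X-linked members, Rpl10, Rpl36a, Rpl39 and Rps4x, had low H3K4me3 in control cells and low H3K4me2 in lens, and Pol2 like that of the others. Their H3K4me3 folds in control cells were 26.4, 18.5, 24.2 and 19.3, all below the median of the autosomal members (37.9). In lens H3K4me2 they had 17.4, 15.0, 14.7 and 16.2, below the autosomal median of 26.1. In control αTN4 H3K4me2 they had 21.6, 18.5, 16.2 and 10.9, of which that of Rpl10 was above the autosomal median of 20.9. Their Pol2 folds were 40.4, 29.8, 32.8 and 31.3, around the autosomal median of 30.1. X-linked genes in general had a median H3K4me3 fold of 17.4, against 23.7 on autosomes, and a median lens H3K4me2 fold of 13.4, against 23.8. For Pol2 their median was 13.1, against 15.1. This split was made after the values had been seen, and the number of X chromosomes in these samples was not analysed here.

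H3K4me2 lay mainly downstream of the start, and less often upstream of it or on it. In control αTN4 a point 1 kb downstream was in an H3K4me2 peak at all 72 members (44.4% of all genes). The start itself was in one at 18 (25%, where 25.6% of all genes had it), and a point 1 kb upstream at 35 (26.5% of all genes). These shares of all genes include genes without any H3K4me2 peak. Among genes with a peak, an annotated start was covered at 31.9% of members and 56.1% of all such genes. Of the 77 mitochondrial ribosomal genes, 76 had the point 1 kb downstream in a peak and 39 the point 1 kb upstream. At least 2 H3K4me2 peaks lay within 2 kb of a start at 68 members (94.4%, background 65.2%). The strongest was downstream of the start at 57 (79.2%, background 63.8%), and its summit lay a median of 1035.5 bp past the start, against 411 bp over all genes. In fold the members stood less far above other genes than for Pol2 and H3K4me3. The median percentile was 93.8 against 87.7, with 47 members in the top decile (65.3%, background 42.8%). The mitochondrial ribosomal genes were close to the members, with a median percentile of 92.7 and 59.2% in the top decile. Counted from the peak nearest to a start, in place of the strongest one, the median percentile was 78.6.

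The highest H3K4me2 folds in control cells were at Rpl12 (29.6), Rps21 (27.9), Rpl36 (27.3), Rps10 (27.0) and Rps18 (26.3). The lowest were at Rps29 (8.19), Rps4x (10.9) and Rpl31 (12). Rpl31 thus combined the highest H3K4me3 fold of the family with nearly the lowest of H3K4me2. In Pax6 KD cells the highest were Rpl37 (38.5), Rps27 (35.1), Rps21 (30.9), Rpl34 (30.6) and Rpl35 (30.2), and the lowest Rps6 (12.2), the substrate of the S6 kinases, and Rps29 (13.9).

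H3K4me1 islands, called with SICER, lay further into the genes. In control cells the centre of the island with the most reads was a median of 2501 bp past the start in the 46 members that had one, against 875.5 bp over all genes. The start itself was in an island at 3 members (8.44% of all genes) and a point 2 kb downstream at 40 (23.0% of all genes). Members with an island had stronger promoters by the other marks. Their median Pol2 fold was 30.7 (17.9 to 65.7) and that of the 26 members without one 22.7 (10.9 to 46.7). The H3K4me3 medians were 40.9 (24.2 to 54.2) and 28.9 (15.1 to 45.3). The ranges overlap in both. Of 28 members with snoRNAs inside, 23 had an H3K4me1 island, and of 44 without snoRNAs 23 had one. ChIP reads per kb of the island were highest at Rpl18 (40.8), Rpl3 (32.6), Rpl12 (31.7), Rpl10a (30.4) and Rps12 (28.0), where the family's median was 20.4 and that of all genes with an island 20.5.

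**Figure D4:**
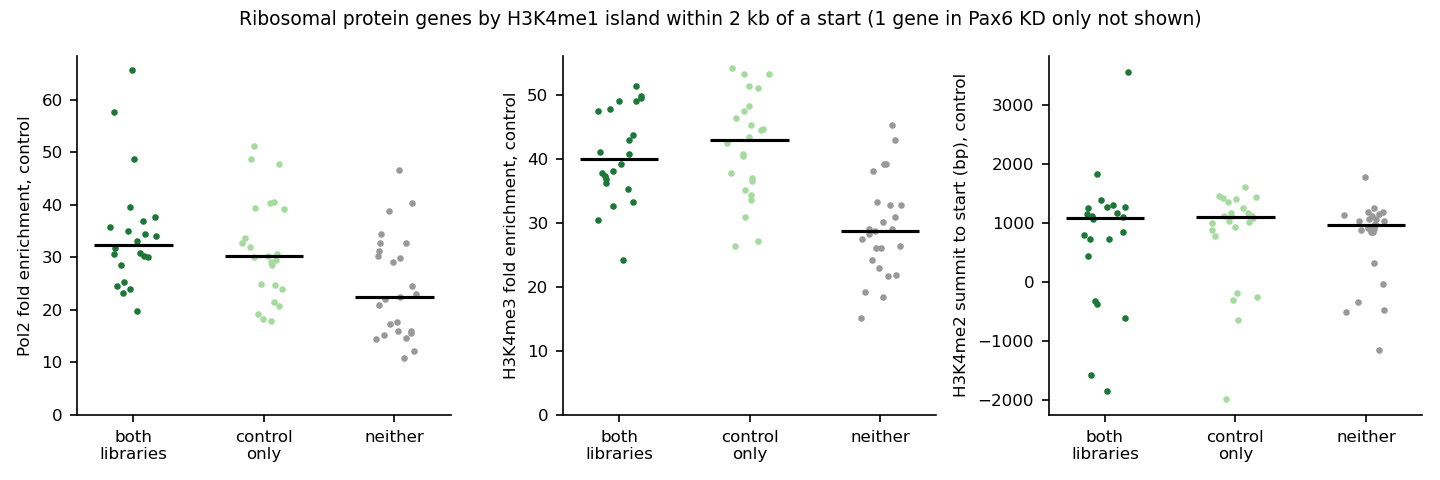
Fold enrichment of the strongest Pol2 peak (left) and H3K4me3 peak (middle), and distance of the strongest H3K4me2 summit from the start in bp (right), in control αTN4, for members with an H3K4me1 island in both libraries (22), in control only (24) or in neither (25). Points are genes and lines are medians. For Pol2 and H3K4me3 the genes without an island lie lower, with overlapping ranges, and the H3K4me2 summits are near 1 kb in all classes.

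In Pax6 KD cells H3K4me1 islands were found at fewer members, as at fewer genes of all kinds. Of the 46 members with an island in control, 24 had none in Pax6 KD cells (52.2%, background 56.5%) and 22 kept one. Rpl37a alone had one in Pax6 KD only (background 1.73%). Of the mitochondrial ribosomal genes, 29 of 38 had none in Pax6 KD cells (76.3%). The strongest islands of the 22 members were called separately in each library, and those of 19 overlapped. In the 22, the log2 ratio of read density (Pax6 KD over control) had a median of -0.21, with 18 lower, where all genes with an island in both had a median of -0.34. Relative to all genes the median was 0.13 (interval -0.21 to 0.22), so its sign depends on this centring, and it was 0.12 for the 19 with overlapping islands. Rpl3, the member with the broadest island in control (992 ChIP reads in control), had 32.6 reads per kb in control and 22.3 in Pax6 KD cells. Rpl12 had 31.7 and 27.2, Rps27 19.5 and 18.7, and Rpl8 21.9 and 20.3. The Pax6 KD list is smaller throughout, with 18417 islands and 1849269 ChIP reads in them, against 38007 and 3289553 in control. Its part in the loss of islands was not tested.

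H3K4me3 in Pax6 KD cells was compared with control by the percentile of each member's strongest peak in its list. The median change was 0.26 points, with an interval of the median from -0.93 to 1.48, and 36 members were higher and 36 lower. Over all 10624 genes with a peak in both lists the median change was -1.68. The fold itself was lower in Pax6 KD cells at 69 members, with a median log2 ratio of -0.50. It was also lower at 10018 of the 10624 genes, with a median of -0.51. By at least 5 points 14 members stood higher in Pax6 KD cells (19.4%, background 22.6%) and 15 lower (20.8%, background 37.3%). Percentiles end at 100, and the third quartile in control was 98.0 for members and 84.3 over all genes with a peak. A larger share of members thus had no room to rise by 5 points, and the background is not a like comparison. The strongest peak was narrower in Pax6 KD cells at 57 members (background 64.1%), with a median log2 ratio of width of -0.14, against -0.07 over all genes. With 1 library each, none of these shifts has a replicate check.

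The largest gain in H3K4me3 percentile was at Rps4x, with 55.7 in control and 81.1 in Pax6 KD cells, where the fold itself was 19.3 and 20.7. Rpl18, which shares its start region with Fam83e and Sphk2, had 76.0 and 96.6, and Rps9 had 62.1 and 81.1. Rpl23, which like Rpl11 and Rpl5 binds Mdm2, stood at 83.3 and 99.2, and Rps3, at the mRNA entry, at 69.2 and 85.0. All of these stood higher in the Pax6 KD list by percentile. The fold itself was lower at Rps9 (21.8 in control and 20.7 in Pax6 KD cells) and at Rps3 (24.2 and 22.1), as at most members. In the other direction the largest difference was at Rpl32, with 99.0 in control and 74.7 in Pax6 KD cells. Rpl36a had 53.3 and 34.6, Rpl31 had 99.7 and 86.4 and Rps18 had 98.8 and 86.9. The order of the members was largely shared between the 2 libraries, with Pearson's r of 0.74 between the folds and Spearman's rho of 0.71.

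For H3K4me2 the family as a whole stood at nearly the same place in both lists. The median change of percentile from control to Pax6 KD cells was -0.62 (interval -1.22 to 1.08), against -0.99 over all 12668 genes with a peak in both. By at least 5 points 14 members were higher (19.4%, background 17.6%) and 9 lower (12.5%, background 27.1%). The strongest peak was narrower at 54 members (background 72.6%). Rpl31 had the largest gain, with 71.4 in control and 95.9 in Pax6 KD cells, and so was higher for H3K4me2 and lower for H3K4me3. Rps29 stood at 57.4 and 74.9, Rps3a at 73.9 and 89.8, Rpl30 at 81.5 and 95.2, and Rps4x at 67.8 and 80.8. Differences the other way were smaller, at Rpl10 (94.9 to 86.9), Rpl28 (94.0 to 86.2), Rpl26 (92.8 to 85.7) and Rps6 (76.4 to 69.7). Rps4x alone was among the 5 largest gains for both marks.

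**Figure D5:**
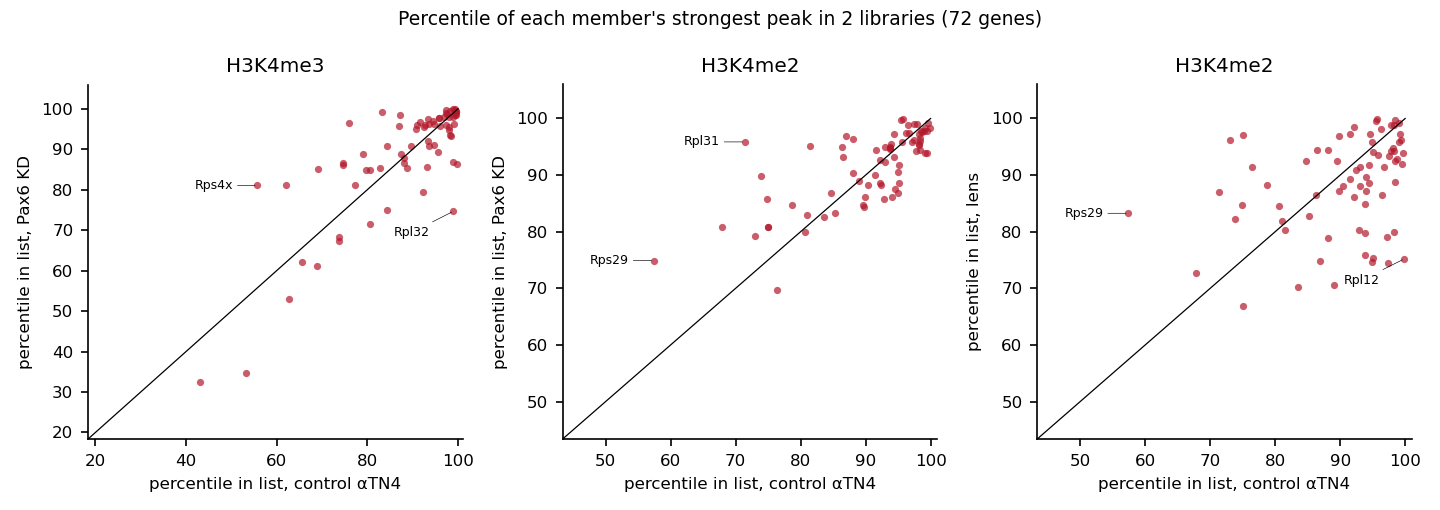
Percentile of the fold enrichment of each member's strongest peak within its list, in control αTN4 (x axis) against Pax6 KD cells for H3K4me3 (left) and H3K4me2 (middle) and against newborn lens for H3K4me2 (right). Points are the 72 genes, the line marks equal percentiles and the 2 genes farthest from it are named. Most points lie near the line in the Pax6 KD panels and scatter more widely against lens.

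Newborn lens carried H3K4me2 at the same 72 genes in another arrangement. In lens the start itself was in a peak at 36 members, where it was at 18 in control and 14 in Pax6 KD αTN4. A point 2 kb downstream was covered at 24, against 56 and 55, while the shares over all genes were 18.2%, 20% and 18.1%. The summit of the strongest peak lay a median of 663.5 bp past the start in lens and 1035.5 bp in control αTN4. In summit and cover of the start all genes differed the same way, with a median summit at 411 bp in αTN4 and 279 bp in lens, and 48.2% of all genes had the start covered in lens and 25.6% in control αTN4. At least 2 peaks lay near a start at 44 members in lens (44.1% of all genes with a peak) and at 68 in control αTN4 (65.2%).

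In strength the family stood slightly lower in the lens list. The median percentile was 90.2, and that of the mitochondrial ribosomal genes 90.3. The median difference of the members from control αTN4 was -2.37 points (interval -4.13 to 0.16), against -0.07 over all 12316 genes with a peak in both. By at least 5 points 14 members were higher in lens (19.4%, background 31.9%) and 25 lower (34.7%, background 32.8%). The members' high percentiles in control αTN4 left them less room to rise than other genes. With the peak nearest to a start the median difference was 2.62, so the direction depends on which peak is taken. Rps29 was higher in lens, with 83.3 against 57.4, as was Rpl29 (97.1 against 75). Rpl12 was lower (75.2 against 99.8), as were Rps16 (74.5 against 97.4) and Rpl10 (74.6 against 94.9). The lens folds of the members followed those of control αTN4 loosely, with Pearson's r = 0.34 and Spearman's rho = 0.38, where the 2 αTN4 libraries gave 0.68 and 0.73. The lens is a tissue of several cell states and the αTN4 cells a line, so cell type and preparation cannot be told apart.

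The Pax6 list of control αTN4 holds 504 peaks, of which 0 lay within 2 kb of a start of a member (background 0.255%). Within 50 kb of the gene 2 members had one (2.78%, background 3.47%), and within 100 kb 8 did (11.1%, background 5.94%). At the starts and within 50 kb these counts are near the background. The peak nearest to a member lay 22.7 kb from Rpl30, at chr15:34396076-34396483, with a fold of 12.7 and a −log10 q of 37.4. The other was 30.9 kb from Rps18, at chr17:34057871-34058044, with a fold of 6.22. The Rpl30 start carried Pol2 (fold 24.6) and H3K4me3 at percentiles of 92.5 in control and 95.4 in Pax6 KD cells. That of Rps18 stood at 98.8 and 86.9.

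Genes related to the family by name or role served as a comparison. The 6 cytosolic ribosomal genes whose symbols the rule does not catch (among them Rplp0, Rplp1, Rplp2, Rpsa and Fau) all had Pol2, H3K4me3 and H3K4me2 in every such list, with Pol2 folds from 21.8 at Rpsa to 52.6 at Rplp0, which codes for the stalk protein that binds elongation factors. Of the copies named with a final l, Rpl22l1, Rpl7l1 and Rps27l had Pol2 (folds of 40.6, 34.2 and 14.2). Rpl3l, a form of striated muscle, and Rpl10l, a form of testis, had no region in the Pol2, H3K4me3 and H3K4me2 lists, and neither did Rpl39l. Of 151 annotated copies with a -ps symbol, 9 had a Pol2 peak within 2 kb (5.96%), 5 an H3K4me3 peak and 25 an H3K4me2 peak in control cells. Such copies share sequence with the members, and how reads that map to several places were treated is not given in the sources used here, so the level of a member with close copies is less certain than that of a unique gene.

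The pairs with similar names were each separate genes with regions of their own. Rpl7 (chr1) and Rpl7a (chr2) had Pol2 folds of 39.2 and 35.1, and H3K4me3 folds of 42.5 and 47.8. Rpl13 and Rpl13a had 28.6 and 30.1 for Pol2 and 33.2 and 43.8 for H3K4me3. Rps27 and Rps27a, of which the latter is made as a fusion with ubiquitin, had 25.4 and 28.6 for Pol2 and 35.3 and 40.4 for H3K4me3. For 15 members another protein-coding gene starts within 2 kb, as Lrsam1 does at Rpl12, Med22 at Rpl7a and Rnf151 at Rps2. Peaks there cannot be assigned to one gene. The 57 members without such a neighbour had a median Pol2 fold of 29.8 and a median H3K4me3 fold of 37.0. In the 15 with one the medians were 35.1 and 40.4. The strongest H3K4me3 peak in control had a median width of 1730 bp in the 57 and of 2420 bp in the 15.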

How the data were processed

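Of 15 samples, 9 ChIP-seq libraries came with a region list, 1 library per list, and these were used. The 2 input and 4 RNA-seq libraries were not analysed here. The study's methods name Bowtie as the aligner and mm9 as the build. The authors called Pax6, Pol2, H3K4me2 and H3K4me3 peaks with MACS2 and H3K4me1 islands with SICER, and left out blacklisted regions. Tool versions and the treatment of reads mapping to several places are not given in the sources used here. In the MACS2 lists the authors deposited for each peak a fold enrichment (a ratio over local background), the −log10 of its p and q, and a display score. In the SICER lists they deposited the count of ChIP reads and of control reads per island, the fold, a p-value and an FDR. One label field exchanges the antibodies of the Pax6 and Pol2 libraries, which were assigned by their titles. The labels do not say which shRNA the Pax6 KD cells carry, and the study's methods name sh2. Names in the control H3K4me2 list hint at pooled replicates, which no source states.

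A region was given to a gene when it shared at least 1 bp with the 2 kb on either side of a transcript start of a gene that GENCODE vM1 calls protein-coding. The strongest region (by fold, or by ChIP reads for islands) stood for the gene. Fold depends on the library, so lists were compared mainly by the percentile of a fold among all regions of its list. Folds from different lists printed side by side are not on a common scale. Depth of the MACS2 libraries is unknown. Shares have 95% Wilson intervals, medians have order-statistic intervals over genes, and both leave out differences between libraries. No test between conditions was possible with 1 library each. Sequences came from the NCBIM37 genome, in whose chromosome lengths all regions lie. Code was Python 3.11.15 with numpy 2.4.6 and scipy 1.17.1, and was checked on planted regions.

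The members, gene lists and tests were chosen with earlier results of these data known. Named genes were, for each MACS2 list, the 5 highest and 3 lowest members, the 5 largest rises and falls in percentile from control to KD, the 3 largest differences each way in lens, the 5 with most H3K4me1 reads per kb, members with Pax6 within 50 kb and pairs with similar names. Others were named after their values were seen. A few genes that this rule would name are not reported here.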

Additional observations from a re-analysis of the deposited data

How the results depend on the processing

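Of 111 alternative values for 23 results, 92 stayed near the reported value and 19 did not. Near means inside the interval of the reported value, for the number of members with Pax6 within 1.5 times, and for log2 ratios of fold only that their own interval holds 0 as that of the percentile does. The H3K4me1 density ratio changed sign without centring (-0.21) and without neighbours (-0.01), inside its interval, and was 0.12 with overlapping islands only, a setting added after the data were seen. H3K4me1 depended on the window. With 500 bp to either side of a start 25% of members had an island in control and 13.9% in Pax6 KD cells. With the centre inside 2 kb the shares were 25% and 6.94%. No share of all genes was computed for these settings, so an excess of members is shown only for the 2 kb window. Among genes with an island in control, an annotated start was covered at 10.9% of members and 34.2% of all such genes. The percentile of the H3K4me2 peak fell when it was taken among protein-coding genes with a peak (71.0 in control, 72.7 in Pax6 KD and 62.7 in lens) or from the peak nearest to a start (78.6, 79.2 and 85.0). The percentile change of H3K4me2 among protein-coding genes was -2.06 in Pax6 KD and -4.45 in lens, and 2.62 in lens by the nearest peak, a change of direction. Pax6 peaks were at 0 members within 2 kb of a start and at 8 within 100 kb. The pyrimidine tract was at 22.2% of members with no shift, at 19.4% for the start shared by most transcripts and at 80.6% for runs of at least 7 within 30 bases, the last 2 added after the data were seen. A Pol2 peak past the end was at 57.7% of members with a limit of 1 kb, also added afterwards and without a share of all genes. For each of these the cause was not tested beyond what the setting itself changes. No paired analysis was possible because each condition has 1 library. Leaving out a replicate was not possible for the same reason, and the depth of the libraries is not known.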

Other observations

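The 16 other translation genes with TOP mRNAs resembled the ribosomal protein genes in Pol2 and H3K4me3 and less so past the gene end. Their median Pol2 percentile was 94.3 and their median H3K4me3 percentile in control cells 94.1, and 15 of them had an H3K4me1 island in control, of which 9 kept one in Pax6 KD cells. Pol2 past the end was found at 4 of the 12 without another start near the end. In Pax6 KD cells their H3K4me3 percentile differed from control by a median of -2.48 points, and 7 of 16 stood lower by at least 5 points (background 37.3%). Pabpc1, the poly(A)-binding protein, stood at 82.8 in control and 49.0 in Pax6 KD cells, Hnrnpa1 at 88.9 and 63.6, Nap1l1 at 66.8 and 43.1 and Eef1b2 at 99.0 and 79.9. These were chosen after their values were seen.

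The Rps6k kinases, which share only a name with the family and of which several phosphorylate Rps6, were marked unevenly. Pol2 was present at 8 of 10, with folds from 6.36 at Rps6ka3 to 26.2 at Rps6kc1. Rps6kl1 had H3K4me2 in lens (fold 16.1) and no region in the αTN4 lists of Pol2, H3K4me3 and H3K4me2.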
